A study of Arabidopsis thaliana with 6 samples.

Results

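Transcripts of cytochrome P450 (CYP), UDP-glycosyltransferase (UGT) and serine carboxypeptidase-like (SCPL) genes were followed in *Arabidopsis thaliana* anthers. Probe sets were taken where the array annotation names 1 gene whose symbol carries one of these family names. UGT78D2 and SCPL29 were left out. The rule found 100 genes with 1 probe set each, among 22746 probe sets on the array, of which 26 carry a CYP symbol, 46 a UGT symbol and 28 an SCPL symbol. The annotation shows that 2 of the 26 CYP symbols, CYP59 and CYP71, belong to cyclophilins, which are protein-folding enzymes and no P450s. This left 24 P450 members, and 98 genes are described as enzyme genes of the 3 families. Of these, 2 P450 genes, CYP71B27 and CYP51G2, are pseudogenes in RefSeq and stay in all counts. Family genes that the annotation leaves unnamed or lists under other names are not members. Figures given for a family therefore cover these members and not the whole family.

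One group of plants carried a mutation in MYB80, which encodes a MYB protein active in the tapetum, the nourishing layer around developing pollen, and the plants they were set against were wild type. Each genotype had 3 Affymetrix arrays. The mutant ones are labelled 1, 4 and 5-2, and the wild-type ones carry the numbers 2, 5 and 6. The labels call the replicates biological and give about 1000 dissected anthers, at stages 5 to 8, for each. The sources used here give neither the mutant allele, the ecotype, the plants' age nor the meaning of the name 5-2. Nothing says that the replicates were grown apart, so each p-value reflects the spread among these 6 samples, part of which may be technical.

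P450s are haem enzymes that oxidise small molecules such as fatty acids, sterols, hormones and phenolic compounds. UGTs transfer a sugar from a UDP-sugar to hormones, flavonoids and other small molecules, and in pollen they make glycosylated flavonols. SCPL proteins resemble serine carboxypeptidases, and one branch of the family acts instead as acyltransferases that use the glucose esters made by UGTs.

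Among 5 fixed tapetum markers, 4 had a named probe set, and their summed scaled intensity ran from 12293 to 17836 on mutant arrays and from 15134 to 17882 on wild-type arrays, so transcripts of the labelled tissue were abundant in both genotypes. No probe set is named for MYB80 itself, whose level was not analysed here. Scaled intensity is the deposited value times a factor per array (0.897 to 1.12) that gives all arrays the same median. Values under a floor of 16 were raised to it before log2 values were taken.

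Most probe sets of the 24 P450 genes gave signals near the floor in both genotypes. Each gene's level was taken as the geometric mean of 3 arrays. The median level of the P450 genes was 18.8 in the mutant and 20.7 in wild type, close to the floor. That of the UGT genes was 27.3 in the mutant and 28.1 in wild type, and that of the SCPL genes was 33.9 in the mutant and 46.6 in wild type. Over all probe sets it was 70.2 in the mutant and 71.2 in wild type. All 3 wild-type arrays lay at or below the floor for 8 of 24 P450 genes, 9 of 46 UGT genes and 2 of 28 SCPL genes, that is 33.3%, 19.6% and 7.14%, and for 10.6% of all probe sets. All 3 lay above the floor for 5 P450, 22 UGT and 18 SCPL genes, or 20.8%, 47.8% and 64.3%, and for 70.8% of all probe sets. No P450 or UGT gene had a wild-type level above 1000, whereas 3 SCPL genes did (10.7%, and 3.33% of all probe sets). Brightness also depends on the probes of each probe set, so these figures say which members this array could measure and compare no amounts of transcript between families or genes.

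**Figure D1:**
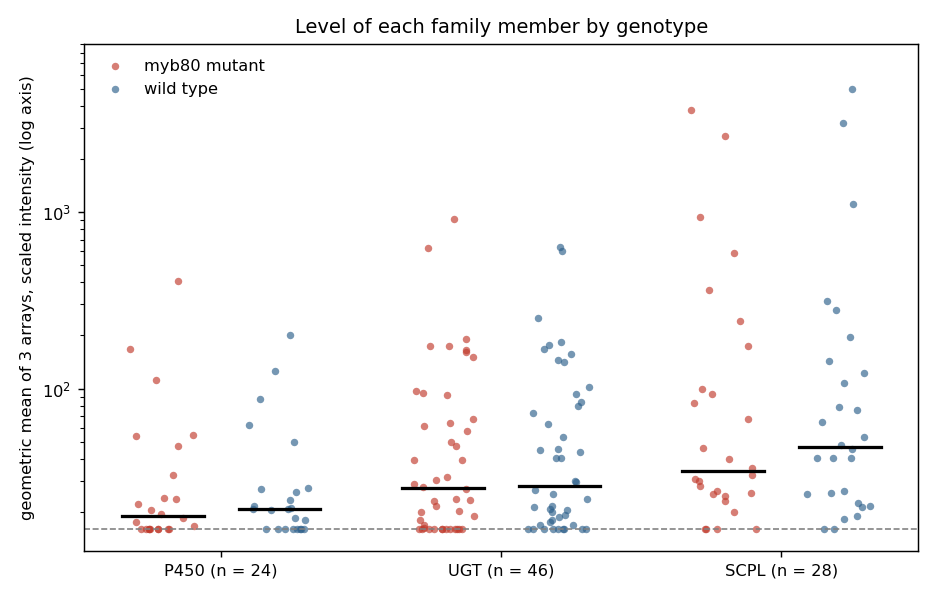
Each point is 1 gene of the named family, at the geometric mean scaled intensity of 3 myb80 mutant arrays (red) or 3 wild-type arrays (blue), on a log axis. Black bars are family medians and the dashed line is the floor of 16. P450 points crowd at the floor, and 3 SCPL points lie above 1000 in wild type.

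Differences between the genotypes were tested with limma after a filter that dropped the dimmest 1 in 3 probe sets, ordered by mean over the 6 arrays. This kept 15164 probe sets, among them 6 of 24 P450 genes (25%), 20 of 46 UGT genes (43.5%), 16 of 28 SCPL genes (57.1%) and the cyclophilin CYP71. A call is an adjusted p under 0.05 (Benjamini-Hochberg over all 15164), and 2.05% of all tested probe sets were called, 0.448% higher and 1.6% lower in the mutant. None of the 42 enzyme genes tested was called by limma. The smallest adjusted p was 0.238 among P450 genes, 0.177 among UGT genes and 0.106 among SCPL genes. At an unadjusted p under 0.05, 1 P450, 2 UGT and 4 SCPL genes passed, 16.7% of the 42, beside 12.3% of all tested probe sets. Without the filter, when all 98 were tested, none was called either (smallest adjusted p 0.244), and 6 had an unadjusted p under 0.05, beside 0.0132% called and 10.2% at unadjusted p under 0.05 over all probe sets.

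A missed threshold does not show that the genotypes had the same level. The 95% interval of the difference, from the same limma fit and not adjusted for the number of genes, lay within 2-fold either way for 16 of the 42 genes (38.1%), against 49.1% of all tested probe sets. For the other 26 the interval reached beyond 2-fold. The 3 mutant arrays lay apart from the 3 wild-type arrays for 7 of the 42, 2 higher and 5 lower. These are 16.7% of the 42, close to the 17.3% of all tested probe sets (8.38% higher and 8.9% lower).

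The median log2 difference, mutant minus wild type, was 0.38 over 6 P450 genes, 0.06 over 20 UGT genes and 0.16 over 16 SCPL genes, against 0.04 over all tested probe sets. In the P450 family 4 differences were positive and 2 negative, in the UGT family 11 and 9, and in the SCPL family 9 and 7. The family medians leaned on single arrays. Without mutant replicate 5-2 they were 0.11, -0.05 and -0.11 for P450, UGT and SCPL genes, and without mutant replicate 4 that of the UGT genes was 0.25. Without wild-type replicate 5 that of the SCPL genes was -0.04, and without wild-type replicate 6 that of the UGT genes was -0.04. Mutant replicate 5-2 was the highest of the 3 mutant arrays for 20 of the 42 genes (47.6%), as it was for 49.0% of all tested probe sets.

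**Figure D2:**
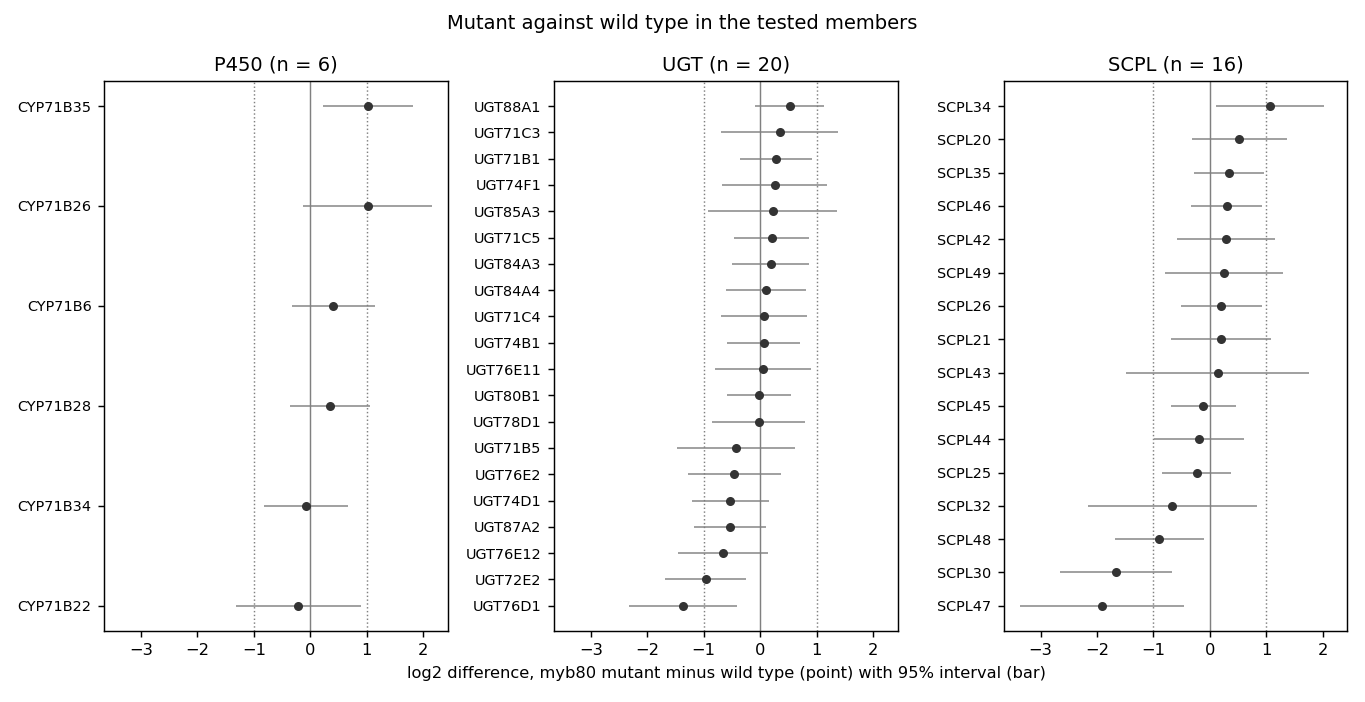
Points are log2 differences, myb80 mutant minus wild type, of the 42 tested enzyme genes, sorted within each family, and bars are 95% intervals from the limma fit on 3 arrays per genotype. Dotted lines mark 2-fold either way. The widest spread of values is in the SCPL panel, from SCPL47 at -1.92 to SCPL34 at 1.07.

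Of the 24 P450 genes, 19 belong to the CYP71B subfamily, most of whose members have no settled role. The scaled intensity of CYP71B26 was 394.5, 190.1 and 909 in mutant replicates 1, 4 and 5-2, against 269, 162 and 188 in wild-type replicates 2, 5 and 6. The mutant arrays differed among themselves by more than the genotypes did, and mutant replicate 4 lay within the wild-type range (log2 difference 1.02 ± 0.51, SE, n = 3 per genotype, limma adjusted p = 0.479).

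CYP71B35 was the single tested P450 gene whose genotypes did not overlap. It read 49.3, 51.4 and 64.3 on the mutant arrays, against 34.9, 35.03 and 8.1 on the wild-type arrays, the last of them under the floor. The log2 difference was 1.02 ± 0.35 (SE, 95% interval 0.23 to 1.81, limma adjusted p = 0.238), and its mean over 6 arrays was close to the limit of the filter. CYP71B6, which acts on a nitrile of the indole defence pathway, read 118, 204 and 193 on mutant arrays, against 98.4, 117 and 172 on wild-type arrays. These ranges overlap (log2 difference 0.41 ± 0.33, adjusted p = 0.715). For CYP71B28 the values were 100.04, 87.6 and 157 on mutant arrays, against 68.8, 90.9 and 106 on wild-type arrays, with overlap again (0.35 ± 0.32, adjusted p = 0.754).

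The other 18 P450 genes were left out by the filter. They included CYP78A9, which promotes fruit and seed growth, CYP79A2, which makes a phenylalanine-derived aldoxime, CYP84A4, a relative of the lignin enzyme ferulate 5-hydroxylase, and CYP51G2, a copy of the sterol demethylase gene that RefSeq lists as a pseudogene. CYP79A2 lay at the floor on all 6 arrays, as 7 of the 24 P450 genes did (29.2%, and 6.37% of all probe sets). No fold is given for these 7.

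Among the 46 UGT genes, the probe sets of UGT88A1 and UGT71C4 were far above the floor on all arrays. UGT88A1 read 968, 860 and 908 on mutant arrays, against 489, 753 and 686 on wild-type arrays. All 3 mutant arrays were above all wild-type arrays, with a small gap between 860 and 753. The geometric mean was 1.44-fold higher in the mutant (log2 difference 0.53 ± 0.27, SE, limma adjusted p = 0.497). UGT71C4 read 687, 491 and 737 on mutant arrays, against 868, 604 and 412 on wild-type arrays. The genotypes overlapped throughout, and the interval of the log2 difference ran from -0.69 to 0.82.

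All 4 remaining UGT genes without overlap were lower in the mutant. With UGT88A1, 5 of the 20 tested UGT genes (25%) had no overlap, beside 17.3% of all tested probe sets (8.38% higher and 8.9% lower). UGT76D1, which glucosylates products of salicylate breakdown, read 40.5, 73.1 and 21.0 on mutant arrays, against 86.9, 109 and 112 on wild-type arrays. It was 2.58-fold lower and was not called (log2 difference -1.37 ± 0.42, SE, 95% interval -2.32 to -0.41, limma adjusted p = 0.177). Mutant replicate 4 was the highest of the mutant arrays, and without it UGT76D1 was called, with a log2 difference of -1.81 (adjusted p = 0.0269, and from 0.0269 to 0.463 over the alternatives tried). That fit called 534 of all 15164 tested probe sets, against 311 in the main fit.

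UGT72E2 attaches glucose to the lignin precursors coniferyl and sinapyl alcohol. It read 91.5, 138 and 66.6 on mutant arrays, against 195, 195 and 165 on wild-type arrays. This was 1.95-fold lower (log2 difference -0.97 ± 0.32, SE, adjusted p = 0.2097), and the wild-type arrays lay much closer together than the mutant arrays. UGT87A2, a gene known from flowering time, read 134, 233 and 169 on mutant arrays, against 248, 241 and 270.0 on wild-type arrays (1.45-fold lower, adjusted p = 0.516). UGT76E12 read 5.1, 38.5 and 34.1 on mutant arrays, against 42.9, 41.0 and 46.5 on wild-type arrays. Mutant replicate 1 was under the floor there and carried most of the difference (log2 difference -0.65 ± 0.35, adjusted p = 0.529).

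Among the 26 UGT genes left out by the filter, UGT71B8, a relative of the abscisic acid glucosyltransferase UGT71B6, was the single one whose genotypes lay apart with all wild-type arrays above the floor. It was picked for this, so its difference and p-value are no independent evidence. The share of such probe sets among all those left out by the filter was not counted. Its values were 3.0, 5.2 and 22.9 on mutant arrays, against 62.6, 40.6 and 36.2 on wild-type arrays. Both mutant replicates 1 and 4 were under the floor, so the fold of 2.504 on floored values depends on where the floor is set (log2 difference -1.32 ± 0.27, SE, limma without filter, adjusted p = 0.244).

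In the SCPL family, SCPL48, SCPL49 and SCPL25 are the 3 genes counted above with a wild-type level over 1000. SCPL48 read 2405, 1876 and 4318 on mutant arrays, against 6176, 4083 and 4985 on wild-type arrays. Only mutant replicate 5-2 reached into the wild-type range, and the gene was 1.86-fold lower without being called (log2 difference -0.90 ± 0.35, SE, 95% interval -1.69 to -0.10, limma adjusted p = 0.327). SCPL49 read 3643, 1952 and 7680 on mutant arrays, against 4097, 2547 and 3110 on wild-type arrays. Its mutant arrays spanned the whole wild-type range (log2 difference 0.25 ± 0.46, adjusted p = 0.906), and without mutant replicate 5-2 the difference was -0.26. SCPL25 read 1029, 724 and 1125 on mutant arrays, against 1094, 1082 and 1153 on wild-type arrays. Its mutant arrays, with an SD of 0.34 on the log2 scale, were less alike than its wild-type arrays, with 0.05 (log2 difference -0.23 ± 0.27, adjusted p = 0.825).

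The 2 lowest differences among all 42 genes were also in the SCPL family. SCPL30 read 48.9, 19.3 and 13.1 on mutant arrays, against 54.5, 96.4 and 90.7 on wild-type arrays. The genotypes did not overlap, and the gene was 3.17-fold lower (log2 difference -1.66 ± 0.44, SE, 95% interval -2.65 to -0.68, limma adjusted p = 0.106). Mutant replicate 5-2 was under the floor, so the fold depends on it, and with no floor the log2 difference was -1.76. Mutant replicate 1 lay just under the lowest wild-type array, and without it SCPL30 was called (log2 difference -2.15, adjusted p = 0.0282, and from 0.0282 to 0.389 over the alternatives tried). That fit called 175 of all 15164 tested probe sets. SCPL47 read 35.9, 11.04 and 58.4 on mutant arrays, against 115, 305 and 51.7 on wild-type arrays. It had the largest estimate and a wide error (-1.92 ± 0.65, adjusted p = 0.224), with mutant replicate 5-2 above wild-type replicate 6. SCPL34 read 669, 359 and 832 on mutant arrays, against 386.5, 164 and 345 on wild-type arrays, and had the highest difference of the family (1.07 ± 0.42, adjusted p = 0.332). SCPL47 and SCPL34 were singled out after their values were seen.

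The 2 cyclophilins found by their symbols did not pass either. CYP71, a nuclear cyclophilin that acts on chromatin, read 245, 181 and 226 on mutant arrays, against 246, 204 and 186 on wild-type arrays, and its interval of -0.57 to 0.63 left out a 2-fold difference (adjusted p = 0.986). CYP59, a cyclophilin that binds RNA, read 50.2, 38.5 and 32.01 on mutant arrays, against 15.6, 25.1 and 9.5 on wild-type arrays, of which 2 were under the floor. It was left out by the filter (log2 difference 1.09 ± 0.27 without it, SE, limma adjusted p = 0.296).

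**Figure D3:**
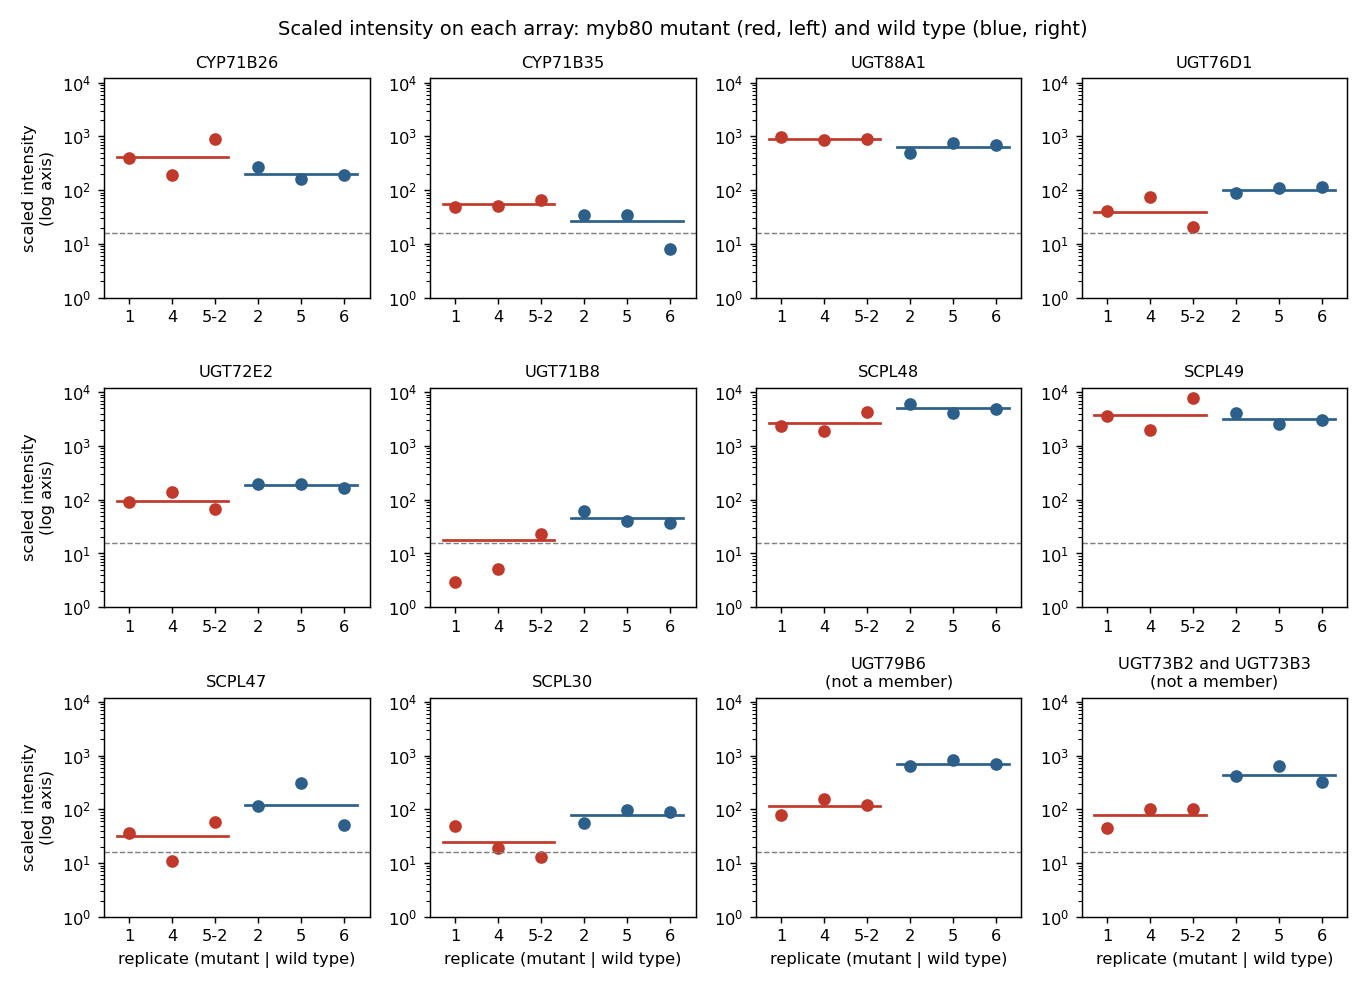
Points are scaled intensities on single arrays, on a log axis, for 10 members and 2 related probe sets outside the rule, with mutant replicates 1, 4 and 5-2 in red and wild-type replicates 2, 5 and 6 in blue. Horizontal lines are geometric means with values raised to the floor of 16 (dashed). The genotypes lie far apart in the last 2 panels, while in the member panels the gap is small or the ranges overlap.

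Many members lie beside each other in the genome, as the gene order of RefSeq's TAIR10.1 annotation shows. Counting members with at most 2 other protein-coding genes between them, 15 of the 22 placed P450 genes formed 4 runs, 29 of 46 UGT genes formed 12 and 6 of 28 SCPL genes formed 3. The other 2 P450 genes, CYP71B27 and CYP51G2, are pseudogenes in RefSeq and were not placed. In the run of 6 on chromosome 3 from CYP71B25 to CYP71B37, 3 genes were tested, and CYP71B26 and CYP71B35, described above, had log2 differences of 1.02 each, against -0.07 for CYP71B34 between them. The run of CYP71B5, CYP71B30P and CYP71B31 on the same chromosome had no tested member. On chromosome 1, UGT71C5, UGT71C4 and UGT71C3 were all tested, with log2 differences of 0.21, 0.07 and 0.34 and none called. On chromosome 3, UGT71B1 had a difference of 0.29 (limma adjusted p = 0.782) and UGT71B8 the lower values in the mutant given above, while UGT71B6 between them lay at the floor on all 6 arrays. None of the 100 probe sets has a name that marks probes shared between genes, but cross-hybridisation between close copies was not tested.

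**Figure D4:**
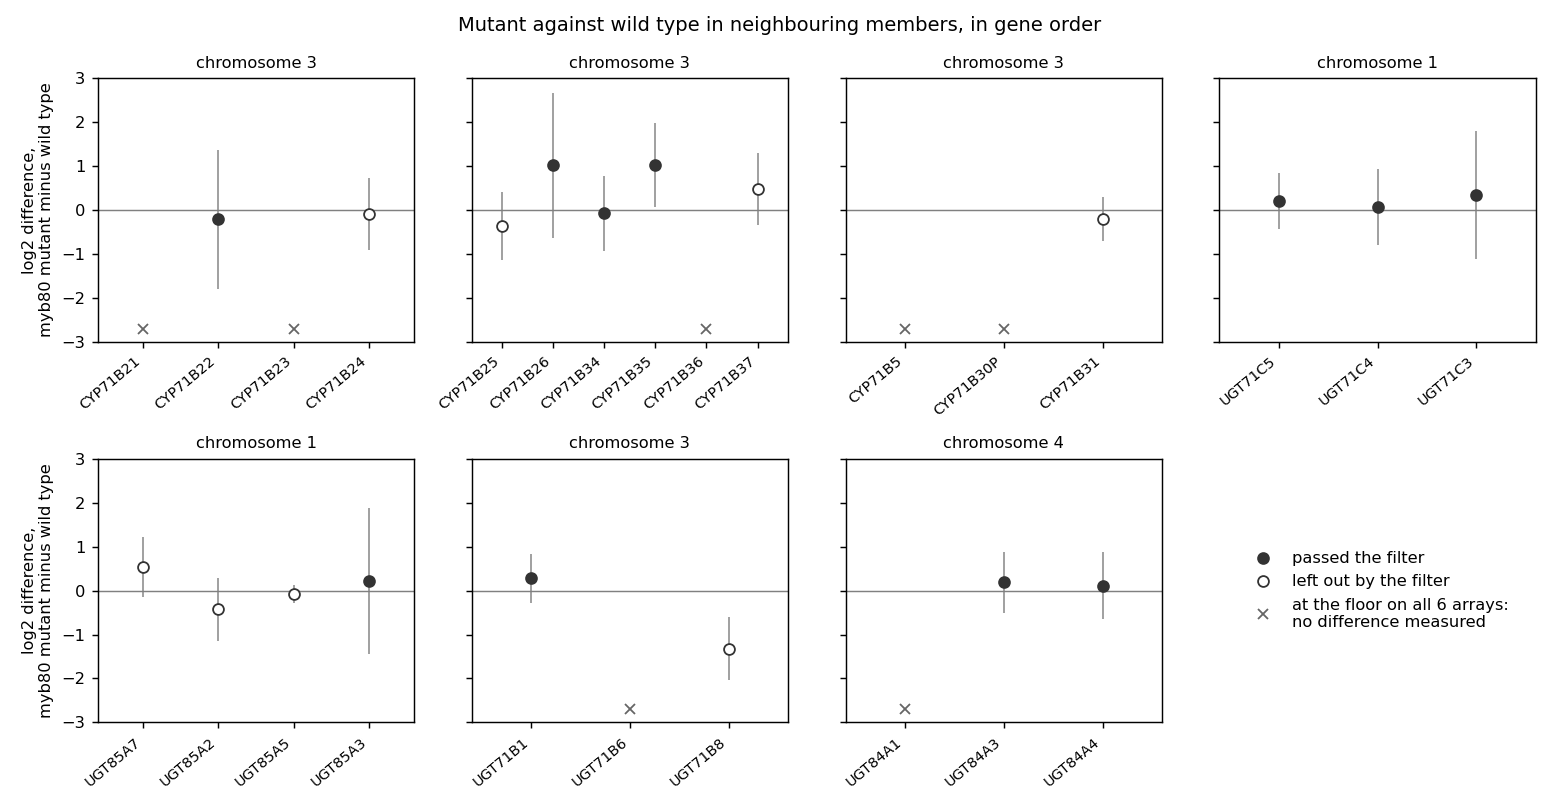
Each panel is a run of at least 3 neighbouring members in gene order along the chromosome, with the log2 difference, myb80 mutant minus wild type, and its 95% interval from limma on 3 arrays per genotype without the filter. Filled points passed the filter, open points did not, and crosses mark members at the floor on all 6 arrays, which have no measured difference. UGT71B8 lies below 0 and CYP71B35 above it, while the intervals of the other points include 0. Neither UGT71B8 nor CYP71B35 was called.

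Outside the rule lay 4 family genes listed under other names and 7 probe sets shared by several genes. All 4 genes under other names passed the filter, while the shared probe sets holding SCPL39, SCPL36 with SCPL37, and CYP79C2 did not. From each of these sets a glycosyltransferase probe set was called lower in the mutant, beside 1.6% of all tested probe sets. UGT79B6, which the annotation lists under its locus code AT5G54010, adds a second sugar to the flavonol glucosides of pollen. It read 79.5, 158 and 122 on mutant arrays, against 643, 813 and 691 on wild-type arrays. The brightest mutant array stayed far below the dimmest wild-type array, and the geometric mean was 6.19-fold lower. The log2 difference was -2.63 ± 0.31 (SE, 3 arrays per genotype, limma adjusted p = 0.00696). The call held without each array in turn and was lost without the filter (adjusted p = 0.118).

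The other probe set is shared by UGT73B2 and UGT73B3, which glucosylate flavonoids, and its signal cannot be divided between them. It was picked after its values were seen. It read 45.8, 102 and 100.3 on mutant arrays, against 415, 642 and 320.4 on wild-type arrays. The genotypes lay clearly apart, at 5.67-fold lower in the mutant (log2 difference -2.50 ± 0.40, limma adjusted p = 0.0193). The call was lost without mutant replicate 5-2 (adjusted p = 0.0773), without wild-type replicate 2 (0.0744), without wild-type replicate 5 (0.0884) and without the filter (0.215).

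Markers of microspores and pollen moved the same way. Of 5 fixed markers 3 were measured, and 2 of these, ACT12 and AGL104, were called lower in the mutant. MGH3 was also lower on all mutant arrays, by 5.37-fold on floored values, but was not called (limma adjusted p = 0.118). The summed scaled intensity of the 3 markers ran from 55.8 to 245 on mutant arrays and from 401 to 733 on wild-type arrays, and their part in the result was not tested. ACT12 on mutant replicate 1 and MGH3 on mutant replicate 5-2, at 8.0 and 1.4, were under the floor. In whole anthers, fewer cells of a type and less RNA per cell cannot be told apart. Of the 4 tapetum markers UND was called lower, by 8.88-fold (log2 difference -3.15 ± 0.63, limma adjusted p = 0.0406). ATA27 and SWEET8 had lower means and were not called (1.61-fold, adjusted p = 0.463, and 1.07-fold, adjusted p = 0.940). The sums of the list overlapped between the genotypes, but they consist mostly of SWEET8 and ATA27 and cannot show the fall of UND. AMS, a transcription factor of the tapetum, read 2037, 1173 and 3359 on mutant arrays, against 847, 774 and 863 on wild-type arrays. Its genotypes did not overlap either, with the mutant above, and it was not called (2.42-fold, limma adjusted p = 0.148). Both leaf markers had higher means in the mutant and were not called. LHCB4.1, of the chlorophyll-binding antenna, was 1.81-fold higher (adjusted p = 0.311), and RCA, Rubisco activase, had genotypes that did not overlap (1.49-fold, adjusted p = 0.502). The leaf sum ran from 807 to 1171 on mutant arrays and from 478 to 812 on wild-type arrays, and its part in the members' differences was not tested. Neither of 2 markers of other floral organs was called, and their sums overlapped.

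Other genes of the same pathways were drawn from 17 fixed lists, of which 10 had a gene matched by name, counting the mistaken match of LCR described below. In the list of phenylpropanoid and flavonoid UGTs, 11 of 17 genes were measured and 7 tested (median log2 difference -0.10). The single call among them, lower in the mutant, was that of UGT79B6 already described, beside 1.6% lower and 0.448% higher over all tested probe sets. UGT78D1, which adds rhamnose to flavonols, read 162, 104 and 270.3 on mutant arrays, against 193, 179.5 and 138 on wild-type arrays (log2 difference -0.03 ± 0.37, limma adjusted p = 0.992). UGT84A3 and UGT84A4, which make glucose esters of hydroxycinnamic acids, had log2 differences of 0.19 ± 0.30 and 0.11 ± 0.32. UGT72B1 and UGT79B1, listed as GT72B1 and UF3GT, had differences of -0.10 ± 0.40 and -0.19 ± 0.33.

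Among UGTs that act on hormones and on a glucosinolate precursor, 11 of 21 were measured, 4 tested and none called (median log2 difference 0.13). UGT74D1, an auxin glucosyltransferase, read 41.3, 41.6 and 73.0 on mutant arrays, against 65.7, 72.7 and 79.1 on wild-type arrays (-0.53 ± 0.30, limma adjusted p = 0.561). UGT71C5, which inactivates abscisic acid, differed by 0.21 ± 0.29 (adjusted p = 0.864). UGT80B1, a sterol glucosyltransferase, read 194, 169 and 162 on mutant arrays, against 182, 188 and 160.2 on wild-type arrays, and its interval of -0.58 to 0.55 left out a 2-fold difference. Its partner UGT80A2, listed as SGT, differed by -0.21 ± 0.36 (adjusted p = 0.894).

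For the P450 lists little could be measured. The name LCR, listed for a fatty acid hydroxylase P450 of the cuticle, matched the locus AT1G27340. That is another gene of the same name, whose annotation gives no P450 name. Its log2 difference of 0.28 ± 0.26 (limma adjusted p = 0.772) is therefore no measure of a P450. No P450 on the list of other names was measured. The lists of sporopollenin, brassinosteroid, gibberellin and abscisic acid, jasmonate, fatty acid and triterpene enzymes, and of P450 and UGT partners, had no gene with a named probe set of its own under the names listed. They were not analysed here. Of the acyltransferase branch of the SCPL family, SCPL16 and SCPL18 were measured and neither passed the filter.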

How the data were processed

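The authors deposited 1 intensity per probe set and array on a linear scale, as judged from the values themselves. The mean after trimming 2% at each end was 150.0 on every array, a pattern that scaling to a common level gives. Which software and summary method made them is not stated, and the files name no genome build, so no coordinates are given. The 64 control probe sets were left out. Arrays were scaled to a common median, values floored at 16 and log2 transformed. The test was limma's (version 3.58.1, R 4.3.3), a linear model with moderated variance, two-sided and without covariates, after the dimmest 1 in 3 probe sets were left out, and the fit was tested on simulated data. Probe sets were named through the platform annotation and RefSeq gene identifiers. Of 22746, 13513 had 1 gene, 503 several and 8730 none named.

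Members and lists were chosen with earlier results of these data known. Named genes are called members, up to 4 highest and 4 lowest without overlap per family, the 3 per family with the highest wild-type signal (chosen as measurable, not to order genes), dim members without overlap that lie above the floor on all arrays of 1 genotype, and per list the called genes or the 2 with the smallest p. Alternatives were the deposited scale, quantile normalization, other filters and floors, other variance models, 1 probe set per gene, leaving out each array, and calls at adjusted p under 0.1. The number of arrays limits the precision.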

Additional observations from a re-analysis of the deposited data

How the results depend on the processing

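No P450 gene was called under any of the 17 alternatives run, and the UGT and SCPL counts were 0 except that leaving out single arrays gave from 0 to 1 in each (UGT76D1 without mutant replicate 4, SCPL30 without mutant replicate 1). Over all 15164 tested probe sets, 534 were called without mutant replicate 4 and 175 without mutant replicate 1, against 311 in the main fit. In both cases the array left out was the mutant array nearest to wild type for that gene. The median log2 difference without the filter, over all members, was 0 for P450 and -0.0103 for SCPL genes. The genes this adds are 18 P450 genes, 7 of them at the floor on all arrays, and 12 SCPL genes, of which 7 had a negative and 3 a positive difference. With the filter kept and single arrays left out, the median log2 difference ran from 0.11 to 0.56 for P450, from -0.0495 to 0.246 for UGT and from -0.11 to 0.14 for SCPL genes. The median wild-type level, on the log2 scale, moved with the floor by construction: without a floor it was 3.81 for P450 and 4.70 for UGT genes, and with a floor of 32 it was 5.0 and 5.23. Leaving out single arrays it ran from 4.27 to 4.40 for P450, from 4.80 to 4.99 for UGT and from 5.45 to 5.67 for SCPL genes.

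Of 25 named probe sets, 16 kept their direction and their side of the threshold in every alternative in which they were tested, and 5 changed sign. The 16 include UGT71B8 and CYP59, whose only alternative was the unfiltered fit already reported for them. Their results could not change, so they are no evidence of stability. LCR, which is no P450, is also among the 16. So is UGT76E12, which was tested in only 7 alternatives, 1 of which left out an array. In that fit, without mutant replicate 1, its log2 difference was -0.26, against -0.65 in the main fit. UGT80B1 was 0.0191 on the deposited scale, 0.0602 with array weights and from -0.0917 to 0.0363 when single arrays were left out. The other changes of sign arose when single arrays were left out, where UGT71C4 ran from -0.20 to 0.33, UGT71C5 from -0.0237 to 0.376, SGT from -0.60 to 0.10 and SCPL49 from -0.26 to 0.73. None of these 5 was called in any alternative, and the cause was not tested. No paired analysis was possible because the genotypes share no 2 replicate numbers. Intensities near the floor limit the comparison for 56 of the 98 enzyme genes, which the filter left out.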

Other observations

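Of the 7 probe sets that the annotation assigns to several genes and that hold a family name, those holding SCPL39, SCPL36 with SCPL37, and CYP79C2 did not pass the filter. Among the rest, the one shared by UGT73B2 and UGT73B3 was the single one called, beside 2.05% of all tested probe sets. UGT71D1 shares a probe set with AT2G29710, which read 278, 238 and 284 on mutant arrays, against 203, 202 and 258 on wild-type arrays (limma adjusted p = 0.766). The probe set of UGT89B1 and AT1G73885 read 116, 168 and 116 on mutant arrays, against 166, 206 and 162 on wild-type arrays (adjusted p = 0.6196). The probe set of CYP71B19 and CYP71B20 read 41.1, 33.4 and 57.7 on mutant arrays, against 84.7, 3.3 and 8.7 on wild-type arrays, so the genotypes overlapped through wild-type replicate 2 alone. On the probe set of SCPL36 and SCPL37, wild-type replicate 5 read 158, while the other 5 arrays read from 1.2 to 4.5.

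SCPL47 was likewise highest on wild-type replicate 5, at 305 against 115 and 51.7 on the other wild-type arrays. SCPL32 read 12.7, 49.8 and 34.2 on mutant arrays, against 9.2, 108 and 62.6 on wild-type arrays. UGT71C2 read 11.6, 4.6 and 5.6 on mutant arrays, against 5.0, 73.7 and 8.3 on wild-type arrays. These genes were picked after their values were seen, and no test was made of this array.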
